A study of Mus musculus with 5 samples.

Results

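Expression of 10 genes of actin dynamics was followed in GL261 cells, a mouse glioma line: the actins Actb and Actg1, the monomer-binding genes Tmsb4x, Tmsb10 and Pfn1, the filament-severing gene Cfl1, and the gelsolin family members Gsn, Capg, Vil1 and Scin. The 10 genes were chosen by symbol, out of 55485 genes in the annotation used, with the results of this same comparison in view. The call of Gsn in this contrast was known when the genes were proposed, so their differences between the groups are described here without a test. The cells had been kept for 24 h with sodium propionate, the salt of propionic acid, which gut bacteria release as they ferment fibre, or with sodium chloride as the control salt, each at 1 uM as the labels write the dose. That is low for a propionate treatment of cultured cells, and whether the unit is right could not be settled from the files. Total RNA was sequenced in 3 libraries of the chloride group, numbered 1 to 3, and 2 of the propionate group, numbered 2 and 3. All 5 came from the same line, and propionate replicate 1 was not analysed here. The labels do not say that libraries came from separate cultures, so the spread between them may be technical.

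Actin exists as single molecules (monomers) and as filaments, and cells change shape and move by shifting molecules between the 2 forms. Beta-thymosins are very short peptides that each hold 1 actin monomer and keep it out of filaments, while profilin hands monomers to growing filament ends. Cofilin and gelsolin cut filaments, and gelsolin then stays on the cut end as a cap. Glioma cells depend on this turnover for migration.

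The libraries were alike in depth, with 7.19 to 7.63 Gb of aligned sequence each, and a gene at 1 TPM (transcripts per 1000000 in the library) had a mean per-base coverage of 4.73 to 4.99. Levels are given as gene TPM, which is scaled by transcript length, so that levels of different genes can be compared. Changes are propionate minus chloride on log2(TPM + 1) with the standard error (SE) of the limma fit. Of 13878 genes with a mean of at least 1 TPM, 1.82% passed an adjusted p of 0.05 (limma, Benjamini-Hochberg), with 1.31% higher and 0.504% lower in propionate. Of the 10 genes 9, all but Scin, entered that fit, and 2 of them (Tmsb4x and Gsn) were past the threshold. Gsn was not past it with any 1 library left out, nor Tmsb4x without propionate replicate 3. Nothing is read from these calls, since this contrast was used to choose the genes.

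The thymosin pair is shown first as sequence, because both genes encode a peptide of 44 codons and reads have to be told apart between them. The coding parts below come from the transcripts of GENCODE M21 (build GRCm38, named mm10 in the submitters' notes), 5′ to 3′, each on the minus strand of its chromosome, with the bases that differ between the 2 genes in capitals.
Tmsb4x: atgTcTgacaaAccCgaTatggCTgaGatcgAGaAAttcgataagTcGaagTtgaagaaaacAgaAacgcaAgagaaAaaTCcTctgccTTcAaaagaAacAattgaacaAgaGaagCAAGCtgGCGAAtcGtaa
Tmsb10: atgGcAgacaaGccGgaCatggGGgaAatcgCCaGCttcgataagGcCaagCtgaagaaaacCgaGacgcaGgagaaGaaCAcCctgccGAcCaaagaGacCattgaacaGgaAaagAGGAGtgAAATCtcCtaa
Of 135 aligned bases 95 were identical and 40 differed, an identity of 70.4%. The longest identical run was 10 bases, so differing bases lie close together along the whole coding part. Actb and Actg1, in contrast, matched at 88.7% of 1128 coding bases, with identical runs of up to 62 bases.

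Promoter sequence is shown for the 3 genes that were higher in both propionate libraries than in any chloride library, and for Actg1, which was not. Each line is read 5′ to 3′ on the gene's strand from RefSeq (GRCm38.p6) and ends at the base before the start of the main transcript. Lines shorter than 250 bases are limited at their far end by the RefSeq window or by an annotated exon. Capitals mark GGGCGG on either strand (CCGCCC where it lies on the other strand, and copies may overlap) and the CArG box, the site of serum response factor, which controls many actin genes.
Tmsb4x, chrX:167209316-167209468, minus strand: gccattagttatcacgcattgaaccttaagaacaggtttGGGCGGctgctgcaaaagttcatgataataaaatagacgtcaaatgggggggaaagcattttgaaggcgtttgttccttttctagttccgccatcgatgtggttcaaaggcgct
Tmsb10, chr6:72958489-72958578, minus strand: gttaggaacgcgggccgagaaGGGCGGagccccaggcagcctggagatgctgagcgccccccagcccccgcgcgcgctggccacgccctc
Gsn, chr2:35256130-35256379, plus strand: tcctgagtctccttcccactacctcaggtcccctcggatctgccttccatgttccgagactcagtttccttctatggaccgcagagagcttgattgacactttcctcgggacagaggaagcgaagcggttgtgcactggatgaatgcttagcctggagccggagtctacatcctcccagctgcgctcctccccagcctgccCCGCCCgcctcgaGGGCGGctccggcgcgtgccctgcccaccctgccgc
Actg1, chr11:120348543-120348745, minus strand: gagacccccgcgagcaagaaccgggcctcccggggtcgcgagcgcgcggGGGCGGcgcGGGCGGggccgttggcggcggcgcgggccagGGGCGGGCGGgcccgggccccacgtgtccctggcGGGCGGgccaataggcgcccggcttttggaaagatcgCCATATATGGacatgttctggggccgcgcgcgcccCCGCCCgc
RefSeq's table held promoters for 9 of the 10 genes. The gene without one was Actb, so its promoter was not searched. A CArG box was found for 2 of them, Actg1 and Vil1, against 1.63% of all 32851 promoter windows of 300 bases. In Actg1 its last base lay 34 bases before the start. GGGCGG was present for 8 of the 9 genes, against 35.7% of all windows, and TATAAA for none of the 9, against 13.6% of all windows. Each gene was counted once, though Gsn and Tmsb10 had several windows, while the shares are of single windows. The counts of genes and the shares of windows are therefore not like for like. These matches are letters in a window and say nothing of binding.

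Across the 9 tested genes the propionate libraries both lay above all 3 chloride libraries for 3 genes (Tmsb4x, Tmsb10 and Gsn) and below them for 0, while the 2 groups overlapped for 6. Among all tested genes 14.8% were separated with propionate higher and 19.7% with propionate lower. The median change of the 9 genes was 0.10, against -0.03 over all tested genes, and 8 of the 9 were above 0, against 44.5% of all. The 9 genes were chosen with this contrast in view, so nothing is read from these counts. The 2 most abundant genes, Actb and Actg1, and the 2 other abundant regulators of filament ends and monomers, Capg and Pfn1, were among those that overlapped.

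**Figure D1:**
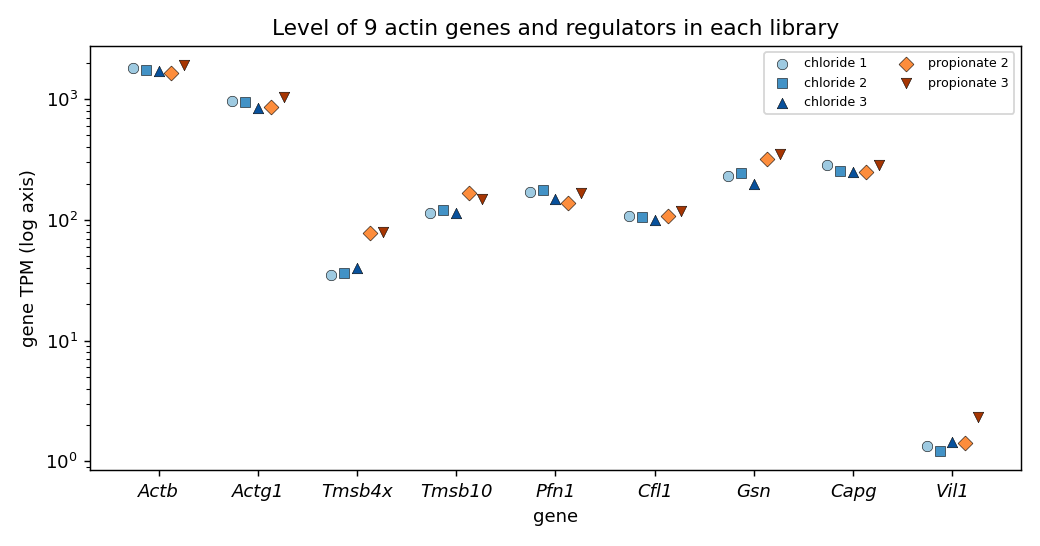
Gene TPM (log axis) of 9 genes in each of the 5 libraries, with blue symbols for chloride and orange or brown for propionate. Actb lies between 1655 and 1908 TPM and Vil1 between 1.22 and 2.33 TPM, and the orange and brown symbols are clear of the blue ones only for Tmsb4x, Tmsb10 and Gsn; Scin, at 0 in all chloride libraries, is not drawn.

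Tmsb4x (ENSMUSG00000049775, chrX:167207093-167209315, minus strand) encodes thymosin beta 4, the main monomer-holding peptide of many cell types. Its level was 34.9, 36.2 and 40.2 TPM with chloride and 77.5 and 79.8 TPM with propionate. The 2 groups were far apart, and the values within each lay close together. The mean went from 37.1 ± 2.76 (SD, n = 3) to 78.7 ± 1.6 TPM (SD, n = 2), a 2.12-fold higher level and a log2 change of 1.07 ± 0.10 (SE). Behind these values stood a mean per-base coverage of 172, 177 and 197 in chloride and 387 and 377 in propionate. The gene ranked 1705th of all genes by mean TPM. With any 1 library left out the change was 1.02 to 1.12.

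Tmsb10 (ENSMUSG00000079523, chr6:72957347-72958748, minus strand) encodes thymosin beta 10, the closest relative of thymosin beta 4 here. It was measured at 114, 121 and 113 TPM with chloride and at 168 and 149 TPM with propionate. Both propionate values were higher than every chloride value, with propionate replicate 2 the highest. The means were 116 ± 4.69 (SD, n = 3) and 158 ± 13.7 TPM (SD, n = 2), 1.37-fold apart, and the log2 change was 0.45 ± 0.09 (SE). Tmsb10 was thus the more abundant thymosin in all 5 libraries, and the gap narrowed: for every 100 TPM of Tmsb10 there were 30.7, 29.8 and 35.6 TPM of Tmsb4x in chloride and 46.1 and 53.6 TPM in propionate. The annotation holds 8 near-identical copies of Tmsb10, and their summed level was 8.08 to 9.86 TPM in chloride and 11 to 11.5 TPM in propionate. With these copies added, the change of Tmsb10 was 0.44.

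Both thymosin genes are short, with main transcripts of 768 (Tmsb4x) and 570 bases (Tmsb10). Among protein-coding genes whose main transcript is under 1000 bases, 18.9% of 891 were separated with propionate higher, against 15.5% of those of 4000 bases or more, and the medians were 0.01 and -0.03. The part of transcript length in the thymosin values was not tested beyond these shares.

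Profilin 1, encoded by Pfn1 (chr11:70651850-70654644, minus strand), is the other abundant monomer binder. Its values were 171, 178 and 150 TPM in chloride and 138 and 167 TPM in propionate. The groups overlapped, with the lowest value of all in propionate replicate 2. The log2 change was -0.13 ± 0.11 (SE), and it came to 0.01 when propionate replicate 2 was left out and to -0.27 when replicate 3 was. Set against the actins, Pfn1 stood at 6.15, 6.59 and 5.86 TPM per 100 TPM of Actb and Actg1 in chloride and at 5.47 and 5.65 TPM in propionate, so that both propionate ratios were the lowest of the 5.

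**Figure D2:**
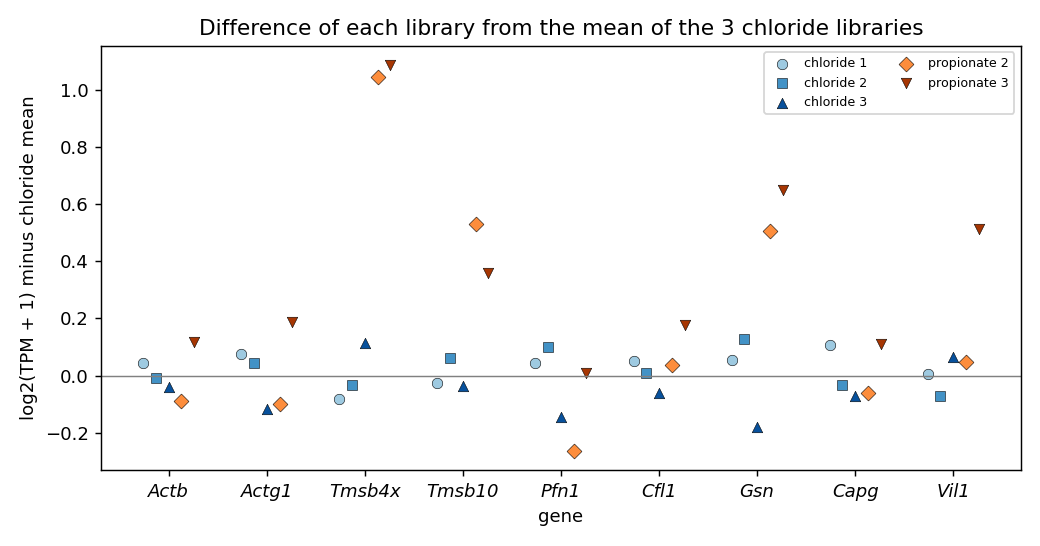
Difference of each library from the mean of the 3 chloride libraries, on log2(TPM + 1), for the same 9 genes. The propionate symbols of Tmsb4x lie at 1.05 and 1.09, those of Gsn at 0.51 and 0.65 and those of Tmsb10 at 0.53 and 0.36, and for the other 6 genes the propionate symbols overlap the range of the chloride symbols or lie on both sides of it.

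Gsn (ENSMUSG00000026879, chr2:35256380-35308506, plus strand) encodes gelsolin, which cuts and caps filaments in response to calcium and is made in a cytoplasmic and a secreted form. Gene TPM was 232, 244 and 197 in chloride and 318 and 351 in propionate. Both propionate values were above all chloride values. The means were 224 ± 24.5 (SD, n = 3) and 335 ± 23.5 TPM (SD, n = 2), 1.49-fold apart, with a log2 change of 0.58 ± 0.11 (SE). Gsn ranked 292nd of all genes by mean TPM. With any 1 library left out the change was 0.49 (without chloride replicate 3) to 0.65 (without propionate replicate 2).

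The transcripts that StringTie assigned to Gsn differed between libraries of the same group. The gene was made up of 7 Ensembl transcripts and 3 assembled from the reads. A transcript of 18 exons and 3223 bases (ENSMUST00000201185, 731 codons) held 72.8, 40.4 and 76.5 TPM in chloride and 56.6 and 57.0 TPM in propionate. A shorter one of 15 exons and 2016 bases (ENSMUST00000202990), which ends before the last exons, held 13.4, 75.4 and 0.555 TPM in chloride and 175 and 106 TPM in propionate. The 3 assembled transcripts together held 139, 123 and 118 TPM in chloride and 81.5 and 185 TPM in propionate. The short transcript was thus highest in the propionate libraries and ranged from nearly 0 to 75.4 TPM within chloride alone.

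**Figure D3:**
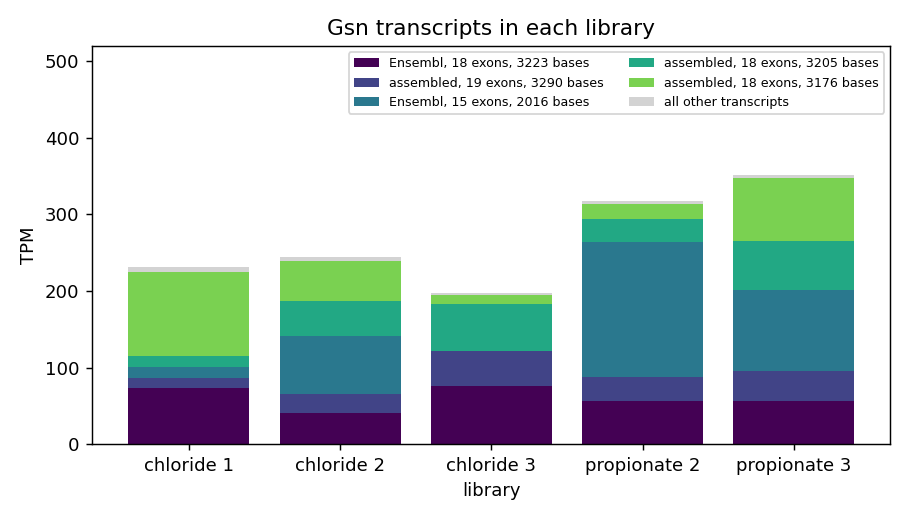
Stacked bars of the TPM of each Gsn transcript that held at least 10% of the gene in any library, with all other transcripts in grey. The bar heights are the gene TPM, from 197 in chloride replicate 3 to 351 in propionate replicate 3, and the 15-exon transcript of 2016 bases goes from 0.555 TPM to 175 TPM.

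TPM divides by length, so coverage that moves to a shorter transcript raises the summed TPM of a gene. With 1 fixed length per gene (2016 bases for Gsn), which removes this, the values of Gsn were 348, 332 and 308 in chloride and 393 and 486 in propionate, on a scale with the same total as TPM. The groups stayed separated, but the fold was 1.34 in place of 1.49 and the log2 change 0.41 ± 0.11 (SE). The same values for Tmsb4x and Tmsb10 gave 2.13-fold and 1.37-fold. On these values Gsn was not past the threshold, while Tmsb4x and Tmsb10 were. Nothing is read from these calls either. This way of computing gene values was added after the transcripts had been seen.

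Exon coverage, summed over all transcripts of the gene that hold the exon and so little affected by how they share reads, was also compared. In Gsn all 18 exons of the 3223-base transcript had higher coverage in both propionate libraries than in any chloride library, with folds of group means between 1.26 and 1.43. Propionate replicate 2 was 1.02 to 1.21 times the highest chloride value of the same exon, and propionate replicate 3 was 1.17 to 1.53 times it. The separation of Gsn was therefore narrow in 1 of the 2 propionate libraries. Tmsb4x was separated in 3 of 3 exons with folds of 1.72 to 2.19, and Tmsb10 in 3 of 3 exons with folds of 1.34 to 1.45. In Tmsb4x the propionate libraries were 1.39 to 2.04 (replicate 2) and 1.77 to 2.12 times (replicate 3) the highest chloride value. Exons of 1 gene share their reads' source and are not replicates.

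**Figure D4:**
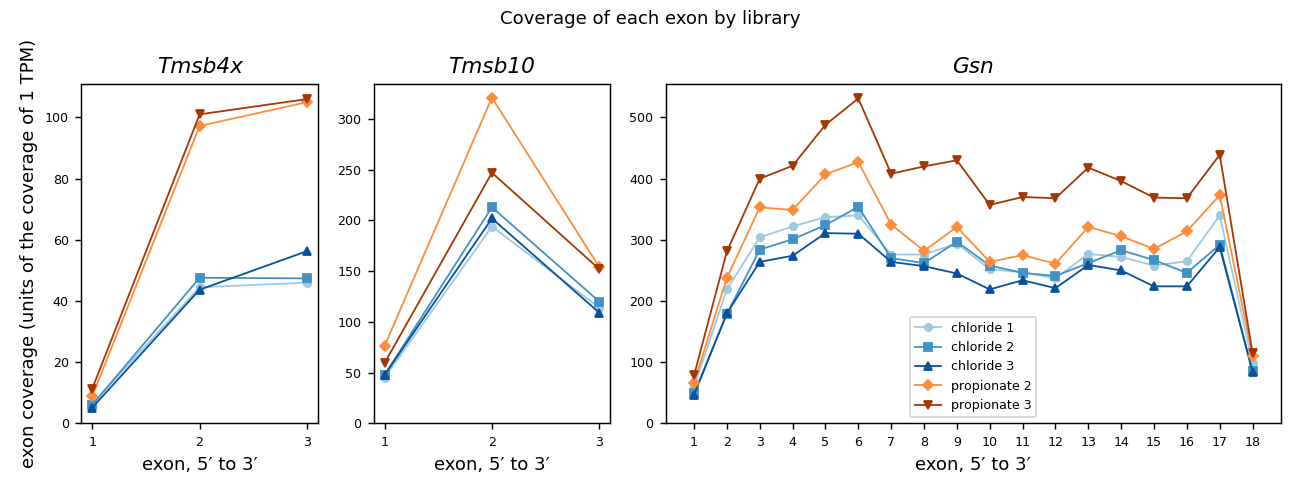
Coverage of each exon of Tmsb4x (3 exons), Tmsb10 (3 exons) and Gsn (18 exons), in units of the coverage of a gene at 1 TPM, by library. The orange and brown lines of propionate run above the blue chloride lines at every exon, by the least in Gsn for propionate replicate 2, and the last Gsn exon has a coverage of 84.0 to 115 against 219 to 531 in exons 3 to 17.

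StringTie assigned nearly all Gsn signal to transcripts with the upstream start of the gene. Transcripts that begin within 35256380 to 35256449 on chromosome 2 held 99.4%, 99.8% and 99.5% of gene TPM in chloride and 99.9% and 99.9% in propionate. Those that begin downstream, between 35282380 and 35282513, held 1.45, 0.447 and 0.935 TPM in chloride and 0.244 and 0.506 TPM in propionate. The exons upstream of that second start had less coverage than the exon after it: exon 1 was at 46.3 to 59.3 in chloride and 66.1 to 78.5 in propionate, exon 2 at 179 to 219 and 238 to 281, and exon 3 at 264 to 304 and 353 to 400. The share of each start therefore rests on how StringTie divided the reads. The transcript with the longest coding part (ENSMUST00000028239, 780 codons) was not among those holding at least 10% of the gene.

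Capg (chr6:72544391-72562983, plus strand) encodes a gelsolin relative that caps filament ends without cutting them. Its values were 282, 256 and 249 TPM in chloride and 251 and 283 TPM in propionate. The ranges of the groups were nearly the same, and the log2 change was 0.02 ± 0.10 (SE). Gsn and Capg were close in abundance, and their ratio set the groups apart: 82.4, 95.1 and 78.9 TPM of Gsn per 100 TPM of Capg in chloride, and 127 and 124 TPM in propionate. Capg was thus the more abundant of the 2 in every chloride library and Gsn in both propionate libraries, on the gene TPM scale. This order depends on the length used: with 1 fixed length per gene Gsn was above Capg in all 5 libraries, at 308 to 348 against 245 to 278 in chloride and at 393 and 486 against 250 and 288 in propionate.

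The other gelsolin relatives were scarce. Vil1 (chr1:74409376-74435559, plus strand), which encodes villin, a bundling protein of intestinal microvilli, was at 1.34, 1.22 and 1.44 TPM in chloride and 1.41 and 2.33 TPM in propionate. Only propionate replicate 3 stood out, and the log2 change of 0.28 ± 0.20 (SE) became 0.05 without it. Scin (chr12:40059769-40134228, minus strand), which encodes adseverin, was listed at 0 in all 3 chloride libraries, against 0.0623 and 0.227 TPM with propionate. Scin did not enter the fit, and no fold is given.

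Cfl1 (chr19:5490455-5495201, plus strand) encodes cofilin 1, the main filament-cutting protein outside muscle. It was at 108, 105 and 100 TPM in chloride and 107 and 118 TPM in propionate. The groups overlapped, and the log2 change was 0.10 ± 0.09 (SE). Its ratio to the actins was slightly higher in both propionate libraries, at 4.24 and 4 TPM against 3.89, 3.91 and 3.92 TPM per 100 TPM of Actb and Actg1. Near-identical copies of Cfl1 summed to 3.12 to 3.35 TPM in chloride and 3.87 to 4.09 TPM in propionate.

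The actins themselves are what all these proteins act on. Actb (chr5:142903115-142906754, minus strand), which encodes beta-actin, was at 1816, 1750 and 1713 TPM in chloride and 1655 and 1908 TPM in propionate, rank 36 of all genes. The lowest and the highest of the 5 values were both propionate libraries, and the log2 change was 0.01 ± 0.09 (SE). Actg1 (chr11:120345690-120348542, minus strand), which encodes gamma-actin, was at 969, 948 and 848 TPM in chloride and 859 and 1049 TPM in propionate, with a log2 change of 0.04 ± 0.11 (SE). The 2 groups overlapped again, and Actg1 stayed at 49.5 to 54.2 TPM per 100 TPM of Actb in chloride and 51.9 to 55.0 TPM in propionate.

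Part of the Actg1 reads may lie in a copy. The annotation holds 9 near-identical copies of Actg1, of which the processed pseudogene Gm12715 (99.6% identical over the coding part) was listed at 257, 256.3 and 232.8 TPM in chloride and 241.3 and 283.6 TPM in propionate. All 9 copies summed to 244 to 270 TPM in chloride and 252 to 296 TPM in propionate, with propionate replicate 3 the highest, as for Actg1. How reads were divided between Actg1 and its copies cannot be told from these files. No such copy was found for Tmsb4x, Gsn, Capg, Pfn1, Vil1 or Scin.

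Ratios to the actins separated the groups for the thymosins (1.53-fold) and for Gsn (1.47-fold), and not for Capg. The ratios of Cfl1 and Pfn1, given above, were separated as well, with smaller differences (1.05-fold and 0.897-fold). Tmsb4x and Tmsb10 together amounted to 5.34, 5.84 and 5.98 TPM per 100 TPM of Actb and Actg1 in chloride and to 9.77 and 7.73 TPM in propionate. Gsn amounted to 8.35, 9.03 and 7.68 TPM per 100 TPM in chloride and to 12.6 and 11.9 TPM in propionate. Capg stayed at 9.50 to 10.1 TPM in chloride and 9.59 to 9.98 TPM in propionate. All of these ratios use gene TPM. With 1 fixed length per gene the fold of Gsn itself was 1.34 in place of 1.49, and its ratio to the actins was not computed on that scale. These ratios are of RNA and not of protein.

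The rest of the actin cytoskeleton was followed with a list of 167 gene symbols in 15 roles, of which 165 were found and 138 had a mean of at least 1 TPM. In propionate 2 of the 138 rose (1.45%, against 1.31% of all tested genes) and 1 fell (0.725%, against 0.504%). The median change was 0.04, against -0.03 for all tested genes, and 77 of the 138 were above 0, or 55.8% against 44.5%. Separated groups with propionate higher were seen for 29 (21%, against 14.8% of all) and with propionate lower for 16 (11.6%, against 19.7%). The shares of calls in the list were thus close to those of all genes. The list was itself chosen with earlier results of these data known. Its counts, and the adjusted p of its genes given below, are therefore descriptions and no independent test.

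Both genes that rose belong to non-muscle myosin II, the motor that pulls on actin filaments. Myh9 (chr15:77760587-77842179, minus strand), its main heavy chain in many cell types, went from 92.6, 88.3 and 85.3 TPM to 123 and 130 TPM, a log2 change of 0.50 ± 0.09 (SE, adjusted p = 0.0316, limma). Myl9 (chr2:156775420-156781677, plus strand), a regulatory light chain, went from 10.2, 11.4 and 13.6 TPM to 18.9 and 19.4 TPM, a change of 0.67 ± 0.13 (SE, adjusted p = 0.044, limma). Both propionate libraries were above all chloride libraries for each gene. Of the 6 tested myosin II genes 5 were above 0 (83.3%, against 44.5% of all tested genes). Their median was 0.30, against -0.03 for all tested genes, with Myh9 and Myl9 included. The 2 most abundant light chains overlapped. Myl6 was at 577 ± 18.1 TPM in chloride (SD, n = 3) and 573 ± 18.5 TPM in propionate (SD, n = 2), and Myl12a at 217 ± 4.51 and 224 ± 16.5 TPM. Over the alternatives tried, the adjusted p of Myh9 ran from 0.00195 to 0.139 and that of Myl9 from 0.0253 to 0.374. The change of Myh9 ran from 0.39 (1 fixed length per gene) to 1.32 (reference transcripts only). It was also 1.32 when only assembled transcripts that overlap more than 1 gene were left out. The TPM of Myh9 given above thus includes such transcripts, and the size of its change depends on them. Myh9 was not past the threshold without any 1 of the 5 libraries (adjusted p 0.0607 to 0.12), and Myl9 was past it only without chloride replicate 3 (adjusted p = 0.0253) among those 5 fits.

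The gene that fell was Eps8 (chr6:137477245-137654876, minus strand), which encodes a capping and bundling protein of filaments in cell protrusions. It went from 168, 158 and 149 TPM to 105 and 114 TPM, a log2 change of -0.53 ± 0.09 (SE, adjusted p = 0.0316, limma). Both propionate values were below all chloride values. The call was lost without any 1 of the 5 libraries (adjusted p 0.053 to 0.107), and over all alternatives the adjusted p ran from 0.0032 to 0.216. The subunits of capping protein, which do the same work at filament ends, lay closer between the groups but not all overlapped. Capza2 was at 112 ± 2.93 and 119 ± 3.73 TPM, separated with propionate higher (change 0.09 ± 0.08), and Capza1 overlapped at 51.5 ± 1.71 and 51.9 ± 4.38 TPM. Capzb was at 50.7 ± 1.67 and 45.2 ± 5.97 TPM, narrowly separated with propionate lower, as Eps8 was (change -0.17 ± 0.11, adjusted p = 0.47, limma).

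None of the other 13 roles had a gene past the threshold. Of the remaining gelsolin family genes, Vill was at 10.4, 12.1 and 8.84 TPM in chloride and 15.7 and 19.4 TPM in propionate (change 0.70 ± 0.15, adjusted p = 0.0588, limma), and Flii and Svil were separated with propionate lower, with changes of -0.26 ± 0.10 and -0.28 ± 0.13. The family thus held values in both directions. Of further monomer binders, Cap1 was at 146 ± 7.34 and 157 ± 13.7 TPM and Twf1 at 26.5 ± 1.63 and 29.8 ± 1.97 TPM. Of the cofilin relatives, Dstn was at 213 ± 5.59 and 237 ± 20.2 TPM and Coro1b at 50.2 ± 2.82 and 50.5 ± 1.72 TPM. Rock2, the most abundant of the kinases listed upstream of cofilin, overlapped between the groups at 39.6 ± 1.80 and 41.9 ± 2.92 TPM.

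Among genes that start new filaments no role had a call. Of formins and other nucleators 12 of 16 were above 0 (75%, against 44.5% of all tested genes), and of the factors that switch on the Arp2/3 complex 5 of 16 were (31.2%). The Arp2/3 list, which holds subunits of this filament-branching complex and its inhibitor Arpin, had 4 of 11 above 0 and a median of -0.02, with Actr3 at 184 ± 5.72 and 179 ± 21.9 TPM, Arpc5 at 187 ± 7.04 and 211 ± 17.1 TPM and Arpc1b at 244 ± 8.69 and 330 ± 94.0 TPM. The spread of Arpc1b came from propionate replicate 3, at 396 TPM against 263 TPM in replicate 2. The list's widest difference was that of the subunit gene Arpc4, named after its values were seen, at -2.10 ± 0.58 (SE, adjusted p = 0.117, limma), from 68.5, 10.9 and 28.3 TPM to 5.34 and 6.24 TPM, with a wide spread within chloride. Nckap1, a subunit of the WAVE complex that switches Arp2/3 on, was at 199 ± 17.8 and 166 ± 5.74 TPM (change -0.26 ± 0.10, adjusted p = 0.237, limma), and Brk1 of the same complex at 138 ± 7.63 and 145 ± 11.4 TPM. Among formins and other nucleators Vasp was at 34 ± 3.29 and 39.5 ± 2.62 TPM and Fmnl2 at 36.5 ± 4.86 and 34.3 TPM.

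Genes that bind along filaments were above 0 in 7 of 8 cases (87.5%, against 44.5% of all tested genes), with 3 of 8 separated higher (37.5%, against 14.8%). Of the crosslinkers and bundlers 12 of 17 were above 0 (70.6%), with 4 of 17 separated higher (23.5%), and of the membrane linkers 5 of 10, with 1 separated higher. None was past the threshold, and the most abundant genes of these roles overlapped between the groups. The crosslinker gene Flna was at 236 ± 11.2 and 231 ± 10.8 TPM, and Actn4 at 62.8 ± 11.9 and 63.6 ± 2.2 TPM. Tropomyosins coat filaments, and their most abundant genes Tpm1 and Tpm4 were at 307 ± 5.19 and 329 ± 34.9 TPM and at 285 ± 11.9 and 290 ± 22.1 TPM. Of the membrane linkers, Anxa2 was at 407 ± 18.3 and 443 ± 45.1 TPM and Ezr at 71.2 ± 2.39 and 66.4 ± 9.15 TPM. Less abundant genes that were separated with propionate higher, named after their values were seen, were Cald1 (41.2 ± 3.28 and 53.0 ± 1.98 TPM, adjusted p = 0.12, limma), Tpm2 (30.2 ± 0.94 and 36.3 ± 2.76 TPM, adjusted p = 0.233), Pls3 (29.9 ± 1.1 and 37.8 ± 2.84 TPM, adjusted p = 0.138) and Vcl (27.2 ± 3.73 and 38.5 ± 1.67 TPM, adjusted p = 0.0927).

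Serum response factor (Srf) and its cofactors, which sense actin monomers, were also measured. Srf was at 14.0, 15.0 and 13.4 TPM in chloride and 12.1 and 14.8 TPM in propionate, and its change was -0.07 ± 0.12 (SE). Mrtfa was at 4.52, 5.29 and 4.34 TPM and 4.06 and 3.76 TPM, and Mrtfb at 5.70, 4.45 and 4.04 TPM and 4.79 and 5.30 TPM. Srf and Mrtfb overlapped between the groups, and Mrtfa was separated with propionate lower (change -0.22 ± 0.13, adjusted p = 0.459, limma).

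**Figure D5:**
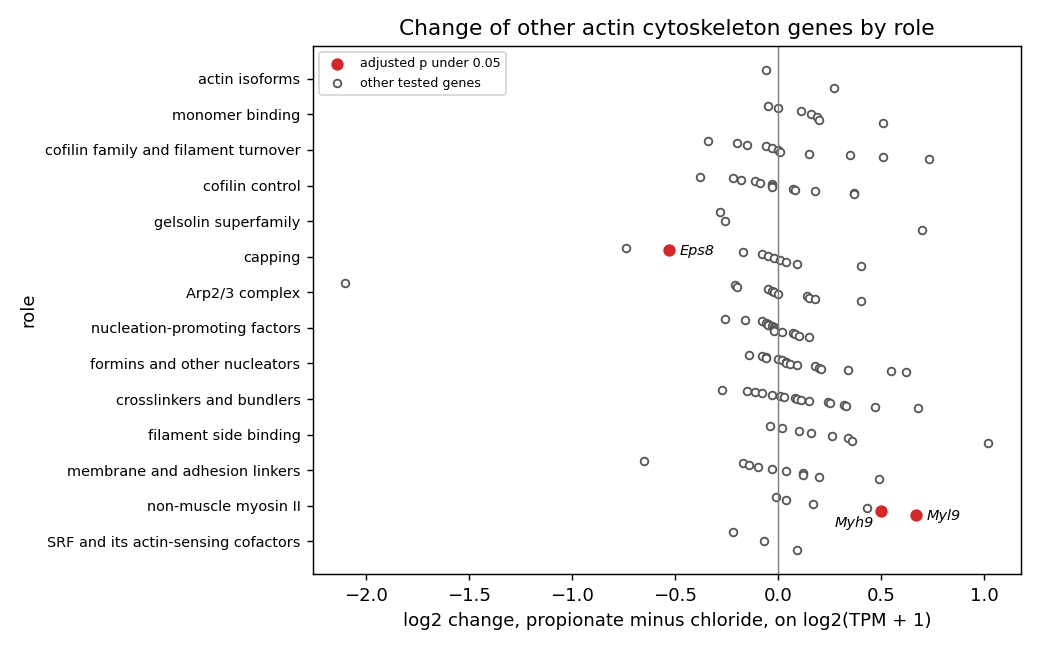
Log2 change, propionate minus chloride, of tested genes of the actin cytoskeleton in 14 of the 15 roles, the 10 genes of the report left out. Red points mark the 3 genes with an adjusted p under 0.05: Eps8 at -0.53, Myh9 at 0.50 and Myl9 at 0.67; most other points lie around 0 and the point farthest left is Arpc4 at -2.10.

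The cells carried the markers of a glioma line: 6 of 8 glial markers were at 1 TPM or more, with a sum of 5635 to 7256 TPM in chloride and 6297 to 7066 TPM in propionate, nearly all of it Vim. Of the other glial markers Fabp7 was at 13, 12.9 and 14.4 TPM in chloride and 21.5 and 26.0 TPM in propionate, without overlap, while Slc1a3 (0.0989 to 0.2 TPM) and Olig2 (0.357 to 0.904 TPM) stayed under 1 TPM throughout. In these bulk samples a change in the share of cells and a change in RNA per cell cannot be told apart. Of other cell types, 0 of 7 lymphocyte and 0 of 5 endothelial markers reached 1 TPM, and the leukocyte marker Ptprc was at 0, 0 and 0.0143 TPM and 0 and 0.0457 TPM. Of the macrophage markers 1 of 8 reached 1 TPM, with sums of 6.58 to 7.94 TPM and 10.5 to 12.2 TPM and with Tyrobp and Itgam at 0 throughout. The sums of all 6 lists of other cell types were separated with propionate higher, as were Tmsb4x, Tmsb10 and Gsn. Several of these sums rested on few genes and do not mean that whole lists rose. Nearly all of the macrophage sum was Cd68, at 7.59, 7.03 and 6.22 TPM and 10.1 and 12.1 TPM. Csf1r, of the same list, was lower in both propionate libraries (0.303, 0.286 and 0.306 TPM and 0.276 and 0.0634 TPM). Most of the neuronal sum was Tubb3, and most of the smooth muscle sum was Acta2 and Cspg4. The sums under 1 TPM were 0.072 to 0.261 and 0.34 to 0.671 TPM for lymphocytes and 0.0246 to 0.0902 and 0.137 to 0.157 TPM for endothelium. The others were the macrophage list above, the smooth muscle list (4 of 6 at 1 TPM or more) from 43.4 to 45.2 TPM in chloride to 54.7 to 61.5 TPM in propionate, the epithelial list (2 of 5) from 8.81 to 10.5 TPM to 14.9 to 18.9 TPM, and the neuronal list (2 of 5) from 195 to 209 TPM to 225 to 265 TPM. Of single markers, Map2 was at 18, 15.9 and 18.9 TPM and 32.6 and 37.4 TPM, and Des at 2.28, 2.84 and 2.69 TPM and 5.45 and 6.39 TPM. Acta2 was at 23.7, 23.2 and 24.0 TPM and 26.8 and 30.9 TPM, Krt8 at 7.27, 6.48 and 5.26 TPM and 10.5 and 13.5 TPM, Epcam at 2.75, 2.69 and 3.29 TPM and 4.13 and 4.65 TPM, and Krt18 stayed under 1 TPM in every library (0.141 to 0.565 TPM). Krt19 and the neuronal markers Rbfox3 and Snap25 were at 0 throughout. Their part in the values of the 10 genes was not tested.

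Genes with a pattern like that of Gsn over the 5 libraries were looked for by the root-mean-square difference of centred log2(TPM + 1). The nearest were Tlr1 (0.0170), Gm9828 (0.0214), Rad9b (0.0301), Azgp1 (0.0318) and Cnmd (0.0465). All 5 were much less abundant than Gsn, with Tlr1 at 2.66, 2.92 and 2.16 TPM in chloride and 3.99 and 4.67 TPM in propionate. Among the other tested genes of the 10, Tmsb10 was the most like Gsn, with a difference of 0.145 and rank 452 of all tested genes, and Pfn1 the least, at 0.351. The likeness is to the gene TPM of Gsn, whose pattern over the libraries depends on the transcript length used. It was not computed with 1 fixed length per gene. With 5 libraries such likeness is a description only.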

How the data were processed

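Per the labels' protocols, total RNA of GL261 cells was made into stranded total-RNA libraries. Reads were handled with bcl2fastq, fastp, HISAT2 and StringTie on the build mm10, per the submitters' processing notes. Per the file headers, StringTie 2.1.1 wrote the coverage, FPKM and TPM of each transcript of 1 merged annotation, with no strand option, so the authors' deposited values hold no read counts, and antisense or overlapping genes and near-identical copies cannot be fully told apart. TPM sums to 1000000 per library. The attribute column that holds these values is text, and TPM was read from it.

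Ensembl transcripts were joined to GENCODE M21 genes by identifier. Of 15415 assembled transcripts, 12224 were added to the gene on the same strand that they overlap most. Gene TPM was tested with limma 3.58.1 in R 4.3.3 on log2(TPM + 1), two-sided, with no term but the group, a mean of at least 1 TPM, and Benjamini-Hochberg adjustment over 13878 genes at 0.05. The scale understates changes of low genes. An exact permutation test of 3 against 2 libraries cannot give a p under 0.1 and was not used.

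The 10 genes, the actin list and the markers were chosen with earlier results of these data known. Named are all 10 genes, list genes past the threshold, up to 3 of the most abundant genes per role otherwise, the 5 genes most like Gsn, and transcripts with at least 10% of a gene; Arpc4, Arpin, Cnn2, Cald1, Tpm2, Pls3, Vcl and some single markers were added after their values were seen, and the genes of 1 role are not reported here. Copies are genes whose transcript matched at least 90% of bases over at least 50% of the coding part and was no longer than 1.5 times the main transcript. Alternatives were other pseudocounts (0.1 TPM), minima, units, scalings and transcript choices, a replicate block, 1 fixed length per gene, copies added, and each library left out.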

Additional observations from a re-analysis of the deposited data

How the results depend on the processing

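Genes past the threshold depended strongly on the processing. Of the 10 genes 2 were past it; there were 0 with reference transcripts only, 1 without assembled transcripts that overlap more than 1 gene, 0 with no minimum, and 0 to 1 when a library was left out. In the actin list 2 rose; the counts were 1 with reference transcripts only, 1 without the overlapping assembled transcripts, 0 with no minimum, 5 with median-of-ratios scaling, 13 with TPM over protein-coding genes, and 0 to 1 with a library left out. One list gene fell; the counts were 0 with no minimum, 2 with 1 fixed length per gene and 0 to 1 with a library left out. Of all tested genes 182 rose and 70 fell, against 5 and 6 with reference transcripts only, 111 and 35 without the overlapping assembled transcripts, 2 and 1 with no minimum, 336 and 153 with median-of-ratios scaling, 629 and 404 with TPM over protein-coding genes, and 118 that fell with FPKM. With a library left out 8 to 127 rose and 7 to 46 fell, the fewest without propionate replicate 3. Some settings gave more calls among the 10 genes. With a minimum mean of 5 TPM, with FPKM and with TPM over protein-coding genes 3 were past the threshold, Tmsb10 being added. With 1 fixed length per gene the 2 were Tmsb4x and Tmsb10. The causes of these moves were not tested, except that no minimum tests 30487 genes. With the replicate number as a block 268 rose and 107 fell, 2 of the 10 genes were past the threshold, and Cnn2, Vill and Arpc4 replaced Myh9, Myl9 and Eps8 in the list. Whether the numbers pair the libraries could not be told. Deviations from the group mean of libraries with the same number correlated at -0.22 and -0.19. With 2 propionate libraries the deviations of 1 mirror those of the other, so these values cannot settle it.

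No log2 change of a named gene that was past the threshold turned direction in the 16 alternatives. Changes ran from 1.02 to 1.12 for Tmsb4x, 0.41 to 1.04 for Gsn and 0.36 to 0.53 for Tmsb10. Those of the other genes ran from -0.27 to 0.01 for Pfn1, -0.09 to 0.27 for Actb, -0.10 to 0.19 for Actg1, -0.06 to 0.11 for Capg, 0.03 to 0.18 for Cfl1 and 0.05 to 0.52 for Vil1 (15 alternatives). In the fits with 1 propionate library the spread comes from chloride alone, and the lone library is assumed to vary alike. Scin lies too low to be compared.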

Other observations

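The shares of the transcripts of other genes also varied within a group while the gene totals stayed close. In Cfl1 the transcript ENSMUST00000209469 held 0.178%, 2.25% and 36.5% of gene TPM in the chloride libraries and 3.79% and 41.2% in the propionate libraries, and replicate 3 was high in both groups. In Capg ENSMUST00000071044 held 81.0%, 96.8% and 91.0% in chloride and 71.0% and 68.9% in propionate, so that both propionate shares were the lowest of the 5. In Actb, assembled transcripts took 13.3% and 11.9% of gene TPM in chloride replicate 3 and 10.5% in chloride replicate 1, and nearly none in the propionate libraries, and the reference transcript ENSMUST00000100497 alone was at 1430, 1618 and 1267 TPM and at 1633 and 1893 TPM. A sum over reference transcripts would thus have given Actb a change of 0.27 in place of 0.01. The 2 main Actg1 transcripts kept their shares, with ENSMUST00000071555 at 56.3% to 62.1% in chloride and 61.3% to 61.7% in propionate.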
